A study of Mus musculus with 30 samples.

Results

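The comparison described here is the last 8-hour step of the first array set in a retinoic acid time course of mouse embryonic stem cells, from 16 h to 24 h. Its members are 6 of the 30 arrays of the series, chosen by title: 3 arrays titled 16 h A, B and C, and 3 titled 24 h A, B and C. A further 3 arrays of 24 h, titled D to F, were left out because they belong to a second array set. The step was picked with earlier results of these data known, as one in which early growth and stress genes rebound. Counts for those lists therefore describe the step and are no independent evidence. All cells were KH2, a single mouse embryonic stem cell line. The labels of the 16 h and 24 h arrays give retinoic acid as the treatment, and the protocol names retinoic acid at 0.3 µM in a differentiation medium with serum. The 3 arrays of 8 h, used below for reference, are labelled baseline, and the labels do not settle whether those cells had met retinoic acid. The cells were grown on feeder cells, detached with trypsin and plated again on gelatin for 30 min before RNA was taken. The protocol describes the cells used for RNA both as those that attached and as those drawn off with the medium, so the content of feeder cells is not settled by the text. Nothing in the labels says that the arrays of a time came from separate cultures, so a p-value here weighs a difference only against the scatter among arrays, and that scatter may be technical.

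Retinoic acid binds nuclear receptors that act as heterodimers on DNA, and in embryonic stem cells it switches on Hox genes, which give positional identity along the body axis, while genes of the stem cell state decline. Other programmes are best known as responses to nutrients, stress and outside stimuli. What drives them in these cells was not tested. The integrated stress response is driven by the transcription factor ATF4, whose translation increases when amino acids are scarce or proteins misfold, and its targets make, import and attach amino acids to transfer RNAs. Immediate early genes such as Fos and Egr1 are transcribed within minutes of a growth factor, serum or mechanical stimulus, through serum response factor and related factors, and genes of the contractile cytoskeleton use serum response factor as well.

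The deposited values are log2 intensities, and differences below are log2 differences, 24 h A-C minus 16 h, with the standard error (SE) of a limma model fitted to the 12 arrays of 8 h, 12 h A-C, 16 h and 24 h A-C. A gene was called where the p-value adjusted by the Benjamini-Hochberg method over 18193 genes was under 0.05. Of these genes, 3496 rose (19.2%) and 3566 fell (19.6%), and the median difference over all genes was -0.02. Most of these differences were small: 163 genes rose by at least 1 log2 unit (0.896%) and 62 fell by as much (0.341%). In 4175 genes the 3 arrays of 24 h all lay above the 3 of 16 h (22.9%), and in 4542 they all lay below (25%), so a lack of overlap was common. The same fit gave 5017 genes higher (27.6%) and 3572 lower (19.6%) at 16 h than at 8 h, and 4705 higher (25.9%) and 3311 lower (18.2%) at 24 h A-C than at 8 h. These comparisons share arrays, so their values are set side by side below and are not evidence for each other. Correlations between arrays over all genes were 0.9981 to 0.9982 within 16 h, 0.9974 to 0.9982 within 24 h A-C and 0.9911 to 0.9922 between the times, and none of the 15 pairs of arrays held identical values. The hybridisation controls overlapped between the times, with BioDn minus BioC at 1.01 to 1.05 at 16 h and 0.99 to 1.05 at 24 h. The probe sets for B1 repeats did not overlap (12.55 to 12.67 at 16 h, 12.25 to 12.33 at 24 h), and neither did those for B2 repeats (14.68 to 14.71 and 14.60 to 14.62). All 10 embryonic stem cell markers lay above the lower quartile of the arrays at both times.

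**Figure D1:**
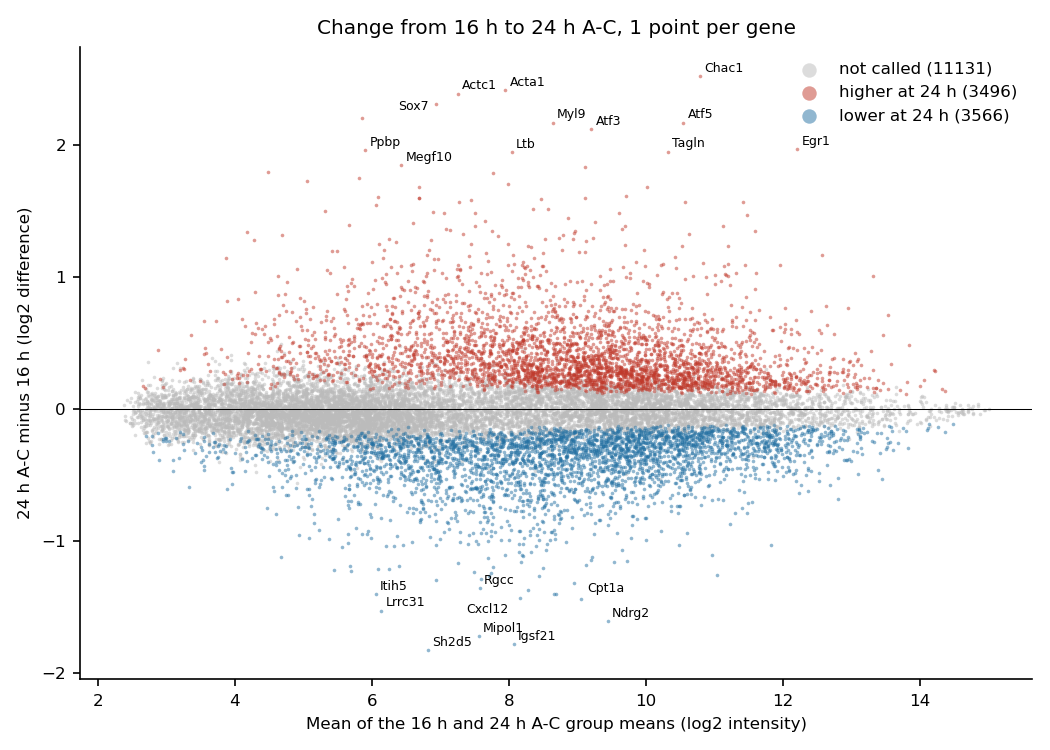
Change from 16 h to 24 h A-C for each of 18193 genes (vertical axis, log2 difference) against the mean of both times (horizontal axis, log2 intensity), with called genes in red (3496 higher) and blue (3566 lower). The rises reach further from 0 than the falls: Chac1 stands at 2.53 and Sh2d5 at -1.83.

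The 12 largest rises and falls were spread over several kinds of genes. Chac1, an enzyme that degrades glutathione, rose by 2.53 ± 0.14, Acta1 and Actc1, the skeletal and cardiac alpha actins, by 2.42 ± 0.07 and 2.39 ± 0.08, and Sox7, a transcription factor of endoderm and endothelium, by 2.32 ± 0.10, although a second Sox7 probe set was not called. They were followed by Myl9, a myosin light chain, at 2.17 ± 0.09, the stress transcription factors Atf5 at 2.17 ± 0.11 and Atf3 at 2.12 ± 0.13, Egr1 at 1.97 ± 0.14, the chemokine Ppbp at 1.96 ± 0.16, Tagln at 1.95 ± 0.09, Ltb (lymphotoxin beta) at 1.95 ± 0.12 and the engulfment receptor Megf10 at 1.85 ± 0.24. The largest falls were Sh2d5 at -1.83 ± 0.11, Igsf21 at -1.78 ± 0.08, Mipol1 at -1.72 ± 0.05 (2 of 4 probe sets called), Ndrg2 at -1.61 ± 0.11 and Lrrc31 at -1.53 ± 0.18. These genes were taken from those without overlap between the times, so their lack of overlap is not a result. Where the lower mean was under the lower quartile of the arrays (4.80), the difference is a lower bound and has no place in that order: Zfp672 rose by at least 1.51, Tktl1 by at least 1.01 and Tspan12 by at least 0.79, while Kif14 fell by at least 0.97, Tmem117 by at least 0.80 and Fbln7 by at least 0.79.

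The promoters of several rising stress genes carry the composite C/EBP-ATF response element that ATF4 is known to bind, and 5 of them are shown because the results below turn on these genes. The stretches are RefSeq sequence of build GRCm38.p6, written 5′ to 3′ along each gene's own strand, with the match in capitals. The element was searched as TGATGNAAN on both strands from 250 bases before to 50 bases after the annotated start, so that a match on the opposite strand appears as its reverse complement.
Chac1: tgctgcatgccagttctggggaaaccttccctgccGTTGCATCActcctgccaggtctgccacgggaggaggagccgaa
Atf3: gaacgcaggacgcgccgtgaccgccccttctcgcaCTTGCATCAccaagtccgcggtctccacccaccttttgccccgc
Nupr1: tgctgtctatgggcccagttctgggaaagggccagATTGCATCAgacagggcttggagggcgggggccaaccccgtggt
Vldlr: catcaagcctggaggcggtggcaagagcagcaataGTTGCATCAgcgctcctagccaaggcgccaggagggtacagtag
Slc7a11: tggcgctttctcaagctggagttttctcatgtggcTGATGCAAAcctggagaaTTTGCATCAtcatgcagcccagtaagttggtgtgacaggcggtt
They lie at chr2:119351013-119351091, plus strand (Chac1), chr1:191183401-191183479, minus strand (Atf3), chr7:126625538-126625616, minus strand (Nupr1), chr19:27216784-27216862, plus strand (Vldlr, which has 2 starts in the table) and chr3:50443618-50443714, minus strand (Slc7a11). The match begins 194 bases before the start in Chac1, 111 in Atf3 and in Nupr1, and 201 in Vldlr, and Slc7a11 has 2 matches, 1 on each strand, 66 and 48 bases before its start. Of the integrated stress response genes with a promoter in the table, 7 of 21 held the element (33.3%), and so did 3 of 11 amino acid transporter genes (27.3%), against 3.22% of 14452 measured genes and 4.50% of all 27025 genes. Of the stress list holders not shown, Asns, Aars and Pck2 rose by 0.22, 0.38 and 0.47, and Trib3 by 1.69. The stress list was made of known targets of this pathway, and a match is a description of these letters, not a bound site.

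Most integrated stress response genes rose between 16 h and 24 h. Of 25 measured members, 22 rose (88%, all genes 19.2%) and 1 fell, with a median difference of 0.54 against -0.02 over all genes. Chac1 stood at 9.58, 9.48 and 9.55 on the 3 arrays of 16 h and at 12.19, 11.91 and 12.09 on those of 24 h, a 5.77-fold difference (adjusted p = 3.82e-07, limma). Every 24 h array was thus at least 2 log2 units above every 16 h array, in a gene picked from those without overlap. Trib3, a pseudokinase that restrains ATF4, read 9.12, 9.17 and 9.22 at 16 h and 11.02, 10.71 and 10.83 at 24 h, a difference of 1.69 ± 0.13 (adjusted p = 2.22e-06). Sesn2, a leucine sensor that lowers mTORC1 activity, read 9.39, 9.40 and 9.32 and then 10.66, 10.47 and 10.62 (1.21 ± 0.07, adjusted p = 5.5e-07). In all 3 genes the groups stood apart by several times the spread between arrays. Atf4 itself read 12.60, 12.56 and 12.57 at 16 h and 13.43, 13.25 and 13.36 at 24 h. This rise of 0.77 ± 0.06 was without overlap, as in 22.9% of all genes in that direction. The lipoprotein receptor Vldlr rose by 1.45 ± 0.14 with all 6 of its probe sets called higher, and Nupr1, a small stress-induced chromatin protein, by 1.02 ± 0.12.

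Other enzymes of the same response followed. Gpt2, which joins glutamate and alanine metabolism, rose by 1.09 ± 0.12, the mitochondrial folate enzyme Mthfd2 by 0.59 ± 0.07, the cysteine-forming enzyme Cth by 0.57 ± 0.13 and Pck2 by 0.47 ± 0.11. The transfer RNA synthetase genes Wars, Cars, Aars and Nars rose by 0.69, 0.39, 0.38 and 0.36. Asparagine synthetase (Asns), already at 13.01 at 16 h, rose by only 0.22 ± 0.06, and Shmt2 by 0.25 ± 0.06. The serine pathway gene Phgdh rose by 0.19 ± 0.06 (adjusted p = 0.0312), a call that was lost without 16 h A, B or C (differences of 0.18, 0.20 and 0.20) and without 24 h A or C (0.17 and 0.18). Psat1 (0.15 ± 0.07, adjusted p = 0.0956) and Sars (0.15 ± 0.07, adjusted p = 0.11) were not called. The stress-regulated mTOR inhibitor Ddit4 rose by 0.33 ± 0.06, and its call was lost in a fit to all 30 arrays.

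Ddit3, which encodes the death-promoting factor CHOP, was the only measured member to fall. It read 10.51, 10.43 and 10.54 at 16 h and 9.70, 9.42 and 9.39 at 24 h. This fall of 0.99 ± 0.10 (adjusted p = 2.06e-05, limma) was without overlap, as in 25% of all genes in that direction. From 8 h to 16 h, 6 members were called higher (24%, all genes 27.6%) and 11 lower (44%, all genes 19.6%). In that earlier step Ddit3 rose by 1.46 while Chac1 fell by 2.35, Trib3 by 1.43 and Sesn2 by 1.18. The second Ddit3 probe set was not called in the step from 16 h to 24 h.

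Set beside 8 h, part of this group was called higher at 24 h and part was not. Chac1 differed from 8 h by 0.18 (adjusted p = 0.334), Sesn2 by 0.03 (adjusted p = 0.74) and Atf4 by 0.08 (adjusted p = 0.332), none of them called. Nupr1 (1.03, adjusted p = 3.1e-05), Vldlr (1.15, adjusted p = 4.7e-05) and Cebpb (0.80, adjusted p = 0.000207) were called higher at 24 h than at 8 h. Over the list, 6 members were called higher at 16 h than at 8 h (24%, near the 27.6% of all genes) and 11 lower (44%, all genes 19.6%). The median was -0.19. At 24 h, 18 were called higher than at 8 h (72%, all genes 25.9%), with a median of 0.32.

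Most measured genes for amino acid uptake rose as well. Of 15 measured transporter genes, 13 rose (86.7%, all genes 19.2%) and 1 fell, with a median of 0.76. Slc7a1, the cationic amino acid transporter, read 10.98, 10.90 and 10.91 at 16 h and 12.30, 12.25 and 12.29 at 24 h, a 2.55-fold difference (adjusted p = 1.8e-06). The glycine transporter Slc6a9 read 8.58, 8.45 and 8.62 and then 10.12, 9.89 and 9.91 (1.42 ± 0.11). The neutral amino acid transporter Slc1a4 rose by 1.33 ± 0.09 and Slc7a7 by 1.33 ± 0.06. None of these 4 genes had overlapping groups, as was true of 22.9% of all genes in that direction. Slc7a11, the cystine carrier whose promoter holds 2 copies of the element, had a 16 h mean of 4.03, under the lower quartile of the arrays, and rose by at least 1.32. The large neutral amino acid carrier Slc7a5 rose by 0.60 and its heavy chain Slc3a2 by 0.18. The glutamate transporter Slc1a3 fell by 0.41, and it is best known from glial cells. These last 4 genes lie outside the naming rule and were chosen after their values were seen.

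**Figure D2:**
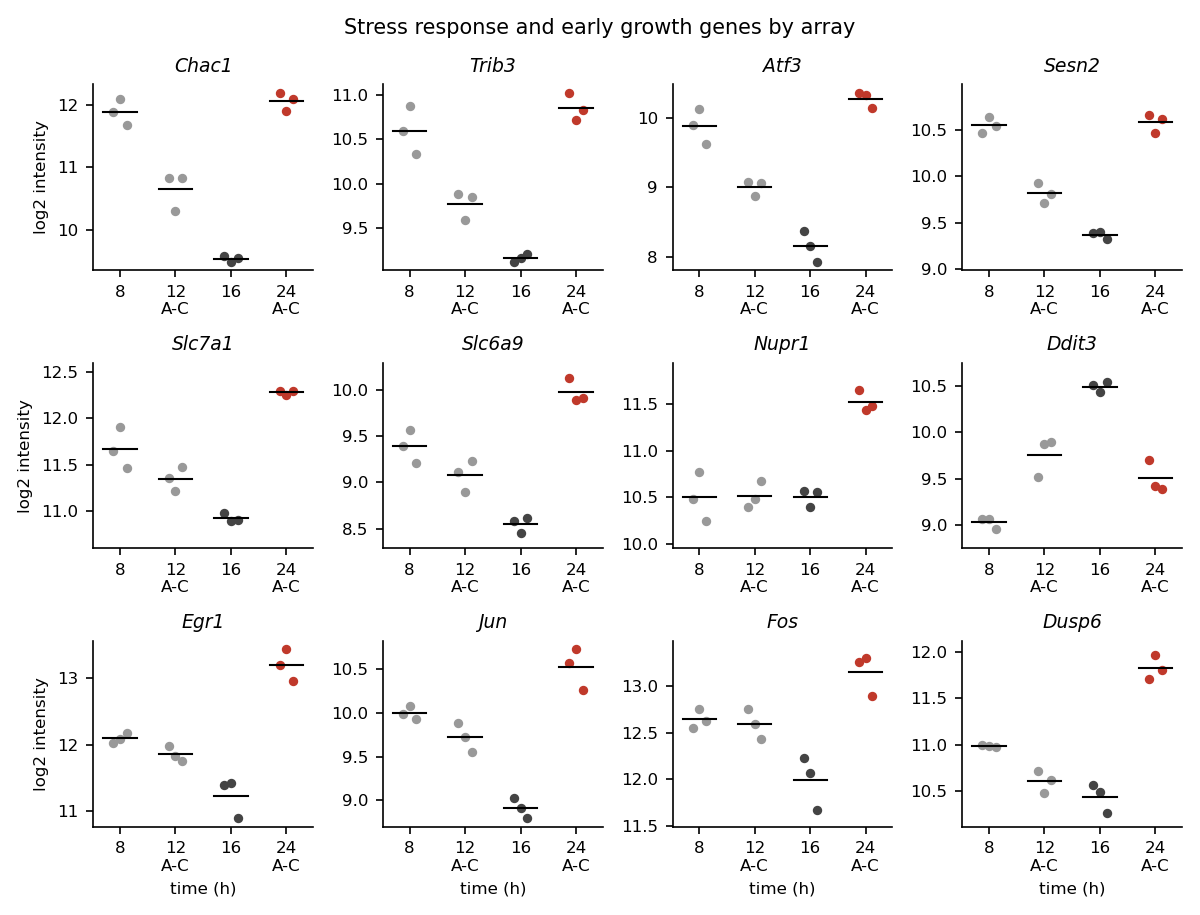
Log2 intensity (vertical axes, scaled per gene) of 12 stress response and early growth genes on each array of 8 h, 12 h A-C, 16 h and 24 h A-C, with 1 point per array and a bar at the mean of 3. Ddit3 falls from 10.49 to 9.50 while the other 11 rise, Chac1 from 9.54 to 12.06 and Egr1 from 11.23 to 13.20, and Nupr1 shows no fall before its rise.

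Immediate early genes rose in the same step. Of 25 measured members, 19 rose (76%, all genes 19.2%) and 0 fell (limma, also 0 lower at an unadjusted p under 0.05). Their median was 0.56. Egr1 read 11.39, 11.41 and 10.89 at 16 h and 13.20, 13.44 and 12.96 at 24 h, a 3.92-fold difference (adjusted p = 1.96e-06). Jun, a component of the AP-1 factor, read 9.02, 8.91 and 8.80 and then 10.58, 10.73 and 10.26 (1.61 ± 0.11, adjusted p = 1.78e-06). Its partner Fos read 12.23, 12.07 and 11.67 and then 13.26, 13.31 and 12.90 (1.17 ± 0.15, adjusted p = 6.93e-05). Jun and Fos did not overlap between the times (22.9% of all genes in that direction), and Egr1 was picked from genes without overlap. In Egr1, Jun and Fos, array C was the lowest of its time at both 16 h and 24 h. Atf3 rose from 8.37, 8.15 and 7.93 to 10.35, 10.32 and 10.13 (4.35-fold). The matricellular genes Ccn1 and Ccn2, targets of both serum response factor and YAP, rose by 1.39 ± 0.11 and 1.24 ± 0.07.

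Among the other early growth genes were Egr2 at 1.50 ± 0.19, Junb at 1.10 ± 0.09, Fosb at 1.08 ± 0.21, the RNA-destabilising factor Zfp36 at 1.00 ± 0.11, the antiproliferative gene Btg2 at 0.84 ± 0.07, Ier2 at 0.75 ± 0.06 and the nuclear receptor Nr4a1 at 0.56 ± 0.08. Myc, at 7.21, 7.37 and 7.68 at 16 h and 7.93, 7.67 and 8.16 at 24 h, rose by 0.50 ± 0.13 (adjusted p = 0.00974), with array B of 24 h (7.67) just under array C of 16 h (7.68). Klf6 (0.50 ± 0.11), Fosl1 (0.41 ± 0.09) and Ier3 (0.29 ± 0.06) rose by less, and their calls were lost in a fit to all 30 arrays. Ier5 rose by 0.30 ± 0.06, with 1 of 3 probe sets called. Srf, which encodes serum response factor, rose by 0.28 ± 0.08 (adjusted p = 0.0117, limma), a call lost when probe sets that can cross-hybridise were left out (0.14). Jund (0.10 ± 0.07), Klf2 (0.14 ± 0.07), Klf4 (0.14 ± 0.08), Dusp1 (0.05 ± 0.07), Maff (-0.10 ± 0.07) and Egr3 (-0.12 ± 0.11) were not called. The Egr3 probe set used was the brighter of 2, the other was called higher, and their mean gave 1.29, so the direction of Egr3 rests on the probe set.

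From 8 h to 16 h, 19 of the same 25 genes were called lower (76%, all genes 19.6%) and 2 higher (8%, all genes 27.6%). The median was -0.76. At 24 h, 11 were called higher than at 8 h (44%, all genes 25.9%) and 5 lower (20%, near the 18.2% of all genes). The median was then 0.13. Egr1 (1.10, adjusted p = 7.35e-05) and Jun (0.52, adjusted p = 0.0029) ended above their 8 h level. Myc ended 1.28 below it (adjusted p = 1.29e-05) and Nr4a1 0.47 below it (adjusted p = 0.000497). Fosb (-0.36, adjusted p = 0.173) and Zfp36 (0.09, adjusted p = 0.528) were not called different from 8 h. In the promoter windows of 19 members with a sequence, a CArG box, the site of serum response factor, was found in 3 (15.8%, in Egr2, Srf and Zfp36) against 1.59% of measured genes and 1.81% of all genes, and the cAMP response element TGACGTCA in 3 (15.8%, in Btg2, Dusp1 and Maff) against 2.92% and 2.03%. Of these, Dusp1 and Maff were not called in the step from 16 h to 24 h. The list was made of known immediate early genes, so these shares describe its letters and are not a result. The retinoic acid response element with a 5-base spacer was in 0 promoters of the immediate early, stress, transporter, ERK feedback, anterior Hox and central Hox lists, against 0.291% and 0.377%. These lists had only 19, 21, 11, 11, 7 and 3 promoters with a sequence. At so low a share, 0 matches says nothing about them, and sites outside the window were not searched.

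ERK signalling induces genes that act as its own brakes. Of 18 measured members of the ERK feedback and FGF list, 9 rose (50%) and 3 fell (16.7%), with a median of 0.32. Over all genes 19.2% rose and 19.6% fell, so the share of falls was near that of all genes. Dusp6, the phosphatase specific for ERK, read 10.56, 10.49 and 10.27 at 16 h and 11.70, 11.97 and 11.81 at 24 h, a 2.61-fold difference (adjusted p = 9.48e-07). All 3 arrays of 24 h lay above those of 16 h by over 1 log2 unit. The Sprouty genes did not move together: Spry2 rose by 0.95 ± 0.09 and Spry4 by 0.81 ± 0.11, while Spry1 fell by 0.48 ± 0.07. Phlda1 rose by 1.21 ± 0.10, Dusp4 by 0.78 ± 0.09, Spred1 by 0.75 ± 0.05, Dusp5 by 0.62 ± 0.09, Il17rd by 0.47 ± 0.05 and Etv5 by 0.43 ± 0.08. Etv4, another FGF target (-0.05 ± 0.09), was not called, nor were Spred2, Fgfr1, Fgfr2, Fgf5 and Fgf8. The ligand genes that were called fell. Fgf4 read 10.19, 10.30 and 10.09 at 16 h and 9.41, 8.73 and 9.24 at 24 h, a fall of 1.07 ± 0.14 with all 4 probe sets called lower, and Fgf15 fell by 0.48 ± 0.08. Relative to 8 h, Spry2 and Spry4 were still 0.56 and 0.83 lower at 24 h, whereas Dusp6 was 0.84 higher.

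Acta1, Actc1, Myl9 and Tagln, genes of the contractile cytoskeleton, were among the 12 largest rises. The promoters of 3 of them are shown because they hold a CArG box, in capitals, close to the start. Tagln had no promoter among the sequences used, so it was not searched. A CArG box was found in 1.59% of measured genes with a promoter. The letters are RefSeq sequence of GRCm38.p6, 5′ to 3′ along the gene's strand.
Acta1: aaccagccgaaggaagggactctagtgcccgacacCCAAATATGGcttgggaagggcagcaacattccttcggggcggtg
Actc1: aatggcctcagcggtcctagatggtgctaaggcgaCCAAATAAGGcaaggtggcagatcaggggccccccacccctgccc
Myl9: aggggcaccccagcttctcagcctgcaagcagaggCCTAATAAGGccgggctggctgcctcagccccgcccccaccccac
The windows lie at chr8:123894804-123894883, minus strand (Acta1), chr2:114052878-114052957, minus strand (Actc1) and chr2:156775268-156775347, plus strand (Myl9), and the boxes begin 73, 47 and 161 bases before the start. These genes were chosen for display after their values were seen, and no binding was measured.

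Acta1 read 6.74, 6.79 and 6.69 at 16 h and 9.05, 9.22 and 9.21 at 24 h, a 5.34-fold difference (adjusted p = 6.93e-09). Actc1 read 5.93, 6.01 and 6.24 and then 8.49, 8.43 and 8.45, a 5.26-fold difference (adjusted p = 1.14e-08). Both alpha actins are known from striated muscle, and both are also induced by serum response factor in cells that are not muscle. Myl9 read 7.54, 7.51 and 7.62 and then 9.65, 9.74 and 9.82 (4.51-fold). Tagln, an actin-binding protein of smooth muscle and fibroblasts, read 9.29, 9.30 and 9.45 and then 11.12, 11.52 and 11.26 (3.87-fold). In these 4 genes the 24 h arrays lay above every array of 8 h and 12 h A-C as well, with 8 h means of 7.37, 6.92, 8.16 and 9.81. Cnn1, a calponin, rose by 0.91 ± 0.10. Of genes picked because they rose, which are no sample of any pathway, the tropomyosin Tpm1 rose by 1.11 ± 0.05 with all 4 probe sets called, Cnn2 by 1.10 ± 0.05, vinculin (Vcl) by 0.58 ± 0.05 and zyxin (Zyx) by 0.56 ± 0.07. Another tropomyosin gene, Tpm2, lies outside the naming rule, was chosen after its value was seen, and was not called (-0.01, adjusted p = 0.898, limma). Tpm1 and Cnn2 had fallen by 0.34 and 0.86 between 8 h and 16 h.

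**Figure D3:**
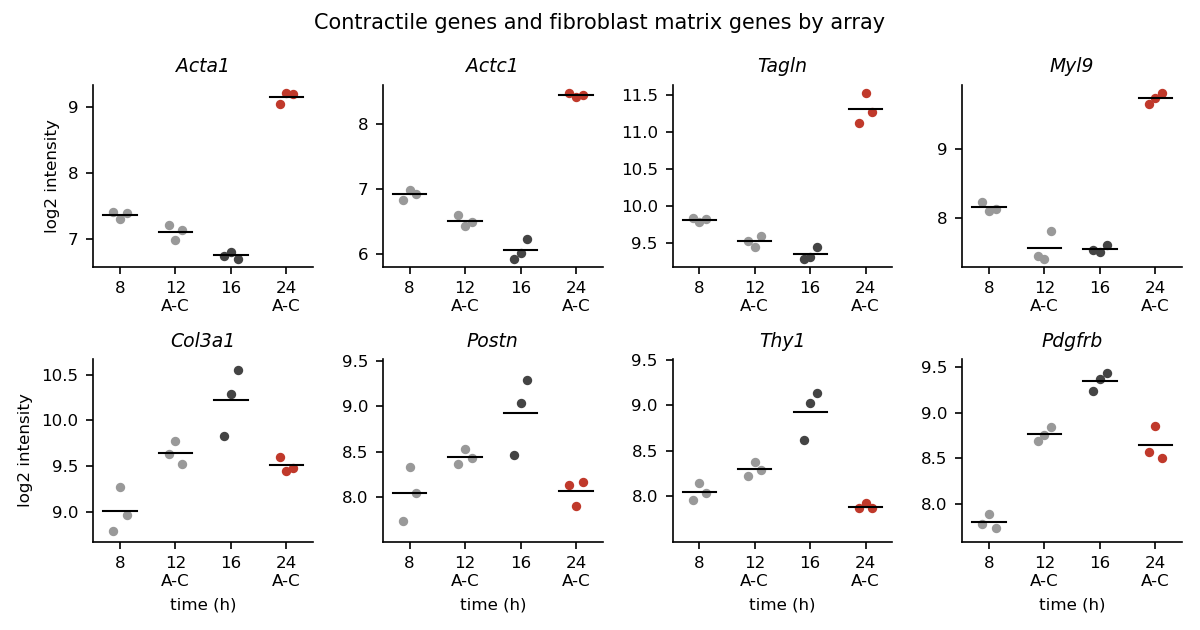
Log2 intensity (vertical axes, scaled per gene) of 4 contractile genes (top) and 4 fibroblast genes (bottom) on each array of 8 h, 12 h A-C, 16 h and 24 h A-C, with 1 point per array and a bar at the mean of 3. The contractile genes rise to their highest level at 24 h, Tagln to 11.30, while Col3a1, Postn, Thy1 and Pdgfrb fall from their highest level at 16 h.

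Feeder cells are fibroblasts, and several contractile genes are also fibroblast genes, so the fibroblast list was read beside them. Of 30 measured fibroblast genes, 6 rose (20.0%) and 13 fell (43.3%), against 19.2% and 19.6% of all genes. The median of the list was -0.21. In a fit to all 30 arrays 2 members were called lower. No member had both means under the lower quartile, and the mean level of the list was 8.91 to 9.26 on the 16 h arrays, a range that held all 3 arrays of 24 h (up to 9.12). The list was not uniform when split into parts, a split that was not planned. In the contractile part 4 of 5 members rose and 0 fell. Myl9 and Tagln were already known as large rises, so this count is a description only. Among the collagens 4 of 7 fell and 0 rose, and among the remaining 18 members 9 fell and 2 rose. The differences of the contractile members ranged from -0.01 to 2.17 and those of the collagens from -0.72 to -0.06. Thy1, a surface protein of fibroblasts and neurons, read 8.61, 9.02 and 9.14 at 16 h and 7.87, 7.92 and 7.87 at 24 h, a fall of 1.04 ± 0.11 (adjusted p = 2.13e-05). The PDGF receptor gene Pdgfrb read 9.23, 9.37 and 9.43 and then 8.57, 8.86 and 8.51 (-0.70 ± 0.09). Col3a1 read 9.83, 10.29 and 10.55 and then 9.60, 9.45 and 9.47 (-0.72 ± 0.16), and Postn, a matrix protein, read 8.46, 9.03 and 9.29 and then 8.14, 7.91 and 8.17 (-0.85 ± 0.19), both losing their call in a fit to all 30 arrays. The groups did not overlap in any of the 4 genes (25% of all genes in that direction), and array A was the lowest of 16 h in each of them. From 8 h to 16 h, 20 of the 30 fibroblast genes had been called higher (66.7%, all genes 27.6%) and 3 lower (10%, all genes 19.6%). Fewer cells of a type and less RNA per cell cannot be told apart in these bulk samples, and the part of feeder content in the contractile genes was not tested. Pdgfrb, Col3a1 and Postn were chosen after their values were seen.

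The other 7 of the 12 largest falls were Cpt1a, Cxcl12, Itih5, Trim63, Car4, Lrrc2 and Rgcc. Cpt1a, which admits fatty acids to mitochondria, read 9.77, 9.76 and 9.81 at 16 h and 8.52, 8.22 and 8.28 at 24 h, a 2.71-fold fall (adjusted p = 2.45e-07) seen with all 3 probe sets. Trim63, a ubiquitin ligase known from muscle wasting, fell by 1.40 ± 0.07, the carbonic anhydrase Car4 by 1.40 ± 0.06, and Lrrc2 and Rgcc by 1.37 ± 0.11 and 1.36 ± 0.10. The secreted proteins Cxcl12, a chemokine, and Itih5 fell by 1.43 ± 0.10 and 1.40 ± 0.15, with 2 of 3 Cxcl12 probe sets called. Of genes picked because they fell, which are no sample of any pathway, Pdk4, which inhibits pyruvate dehydrogenase, read 9.02, 9.21 and 9.10 and then 7.93, 7.87 and 7.90 (-1.21 ± 0.08), the lipid droplet gene Cidea fell by 1.24 ± 0.11, the transcription factor Klf15 by 0.93 ± 0.14, and the insulin receptor gene Insr by 0.90 ± 0.07, with 1 of 3 Insr probe sets called. Most of these had risen from 8 h to 16 h, by 0.56 for Cpt1a, 1.13 for Trim63, 0.73 for Pdk4, 1.03 for Klf15 and 1.51 for Insr, whereas Lrrc2 had not been called (adjusted p = 0.982) and Rgcc had fallen by 0.35. They were not tested as a group.

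Among other stress lists, 14 of 19 genes of the p53 response and cell cycle inhibitors rose and 2 fell, with a median of 0.35. For comparison, 19.2% of all genes rose and 19.6% fell. Ccng1 rose by 0.85 ± 0.08, Phlda3 by 0.84 ± 0.06, Plk2 by 0.73 ± 0.08 and the cell death gene Pmaip1 by 0.67 ± 0.09. The CDK inhibitor gene Cdkn1a, chosen after its value was seen, rose by 0.61. The falls were Gadd45b (-0.61) and Sesn1 (-0.18), both named after their values were seen, and 1 was left without 16 h A, 24 h A or 24 h C. Heat shock and unfolded protein genes split, with 7 of 21 up and 7 down and a median of -0.04. Herpud1, which helps remove misfolded proteins from the endoplasmic reticulum, rose by 1.07 ± 0.10 and the cochaperone Dnajb1 by 0.59 ± 0.05, while the endoplasmic reticulum genes Sdf2l1 and Pdia4 fell by 0.73 ± 0.12 and 0.61 ± 0.06. Of 11 metallothionein and oxidative stress genes, 6 rose and 3 fell, led by the metal-binding Mt1 (12.80, 12.83 and 12.80 at 16 h, 13.86, 13.74 and 13.86 at 24 h, 1.01 ± 0.06) and Mt2 (0.71 ± 0.05). Srxn1 rose by 0.50 ± 0.06 and Gstm1 fell by 0.45 ± 0.06.

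Most anterior and central Hox genes rose in this step. Of 10 measured anterior Hox genes 9 rose and 0 fell (median 0.64), and of 9 central genes 6 rose and 0 fell (median 0.57). Of 14 posterior genes 5 rose and 1 fell (median 0.17). The shares over all genes were 19.2% up and 19.6% down. At an unadjusted p under 0.05 (limma), 0 anterior and 0 central genes were lower. From 8 h to 16 h, 9 anterior and 5 central genes had been called higher (90% and 55.6%, all genes 27.6%), with medians of 1.50 and 0.51. Hoxa2 read 6.37, 6.22 and 6.42 at 16 h and 7.34, 7.59 and 7.50 at 24 h, a rise of 1.14 ± 0.13 (adjusted p = 3.17e-05). Hoxa4 rose by 1.09 ± 0.08, Hoxb2 by 1.02 ± 0.16, Hoxa3 by 0.79 ± 0.13, Hoxd1 by 0.72 ± 0.12 and Hoxb3 by 0.56 ± 0.10. Hoxb1, among the earliest genes that retinoic acid induces, rose by only 0.46 ± 0.13 after a rise of 2.11 from 8 h to 16 h, and lost its call without 24 h B (0.38). Hoxb4 rose by 0.35 ± 0.10 and lost its call without 24 h B (0.28) or 16 h C (0.32), and Hoxc4 rose by 0.38 ± 0.09. Hoxd3 lay near the lower quartile and was not called (0.02 ± 0.15).

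The central gene Hoxa5 read 9.92, 9.86 and 9.79 at 16 h and 10.80, 11.25 and 10.97 at 24 h (1.15 ± 0.11, adjusted p = 1.31e-05), and Hoxc5 read 6.88, 6.84 and 6.77 and then 7.70, 8.19 and 8.10 (1.16 ± 0.20). In Hoxa2, Hoxa5 and Hoxc5 the groups did not overlap (22.9% of all genes in that direction), and array B was the highest of 24 h. Hoxb5, Hoxa7 and Hoxd8 rose by 0.74 ± 0.16, 0.58 ± 0.10 and 0.57 ± 0.14. Hoxb6 rose by 0.55 ± 0.17 (adjusted p = 0.0227), a call lost without 16 h A (0.51), 16 h C (0.56), 24 h B (0.50) or 24 h C (0.55). Hoxb7, Hoxc6 and Hoxc8 were not called. The posterior gene Hoxb9 read 7.74, 7.64 and 7.65 and then 9.04, 9.65 and 9.12, the largest Hox rise at 1.59 ± 0.13 (adjusted p = 4.32e-06). Hoxb13 fell from 9.44, 9.53 and 9.63 to 8.94, 8.58 and 8.72 (-0.79 ± 0.11). Hoxd9 rose by 0.52 ± 0.13, and Hoxa10, with a 16 h mean under the lower quartile, was called at 0.50 but lost its call without 24 h B (0.36) or 16 h B (0.42) and read -0.14 when probe sets that can cross-hybridise were left out. Among 8 Hox cofactor genes of the TALE class 3 rose (37.5%) and 2 fell (25%), against 19.2% and 19.6% of all genes. Meis1 rose by 1.35 ± 0.11 and Meis2 by 0.78 ± 0.16, while Pbx3 and Pbx4 fell by 0.38 ± 0.08 and 0.38 ± 0.07.

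**Figure D4:**
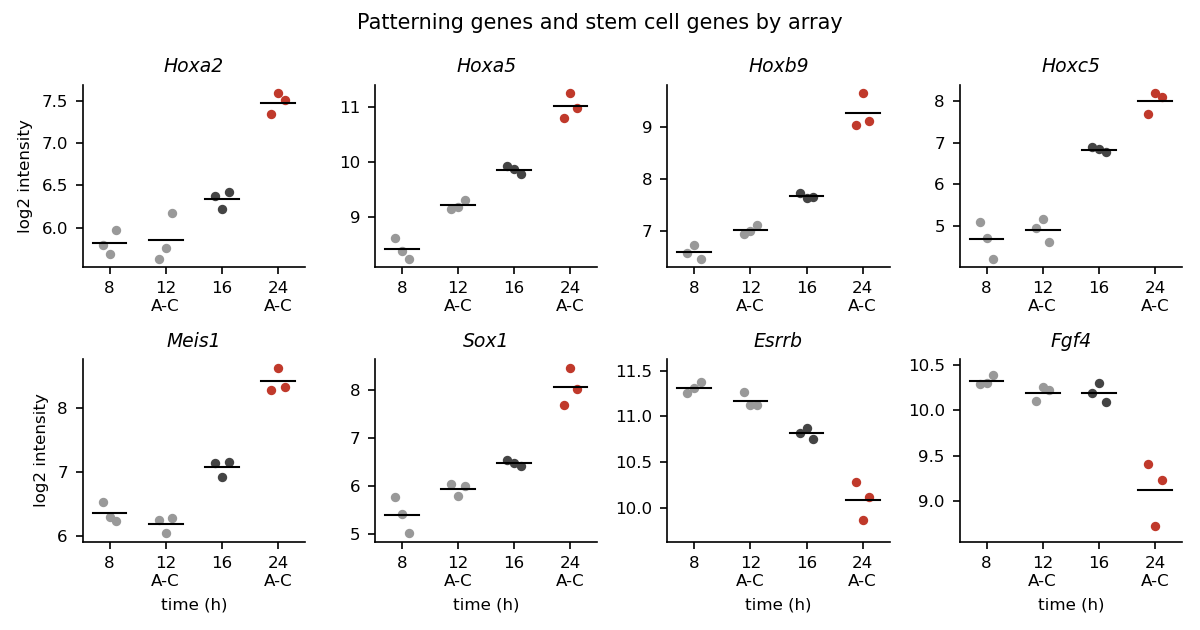
Log2 intensity (vertical axes, scaled per gene) of 6 patterning genes and of the stem cell genes Esrrb and Fgf4 on each array of 8 h, 12 h A-C, 16 h and 24 h A-C, with 1 point per array and a bar at the mean of 3. Hoxb9 climbs from 7.68 to 9.27 and Sox1 from 6.48 to 8.05 in the last step, in which Fgf4 drops from 10.19 to 9.12.

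Genes of the retinoic acid response went both ways. Of 23 measured members 9 rose (39.1%) and 8 fell (34.8%), against 19.2% and 19.6% of all genes. Their median was 0.05, and the falls numbered 4 in a fit to all 30 arrays. Both degrading enzymes fell: Cyp26a1, at 13.47 ± 0.03 (SD, n = 3) at 16 h, fell by 0.18 ± 0.06 (adjusted p = 0.038), a call lost without 24 h A or C (-0.14 and -0.16) and without 16 h A, B or C (-0.18, -0.19 and -0.16), and Cyp26b1 fell by 0.41 ± 0.08. The reductase Dhrs3 fell by 0.27 ± 0.06. Rara fell by 0.34 ± 0.06, while Rarb (-0.25 ± 0.10), Rarg (0.05 ± 0.07) and Rxra (0.11 ± 0.07) were not called. Of the carriers, Crabp1 fell by 0.55 ± 0.09 and Crabp2 rose by 0.47 ± 0.13, after a rise of 3.18 from 8 h to 16 h. Stra6, the cell surface receptor for the retinol carrier, read 7.95, 8.05 and 7.97 at 16 h and 8.82, 9.19 and 8.70 at 24 h. This rise of 0.92 ± 0.10 (adjusted p = 2.82e-05, limma) was without overlap, as in 22.9% of all genes in that direction. The orphan receptors Nr2f1 and Nr2f2 rose by 0.88 ± 0.14 and 0.75 ± 0.14, the corepressor Zfp503 by 0.77 ± 0.16, Ncoa7 by 0.68 ± 0.09, the germ cell gene Stra8 by 0.48 ± 0.07, the retinol dehydrogenase Rdh10 by 0.39 ± 0.07 and Nrip1 by 0.33 ± 0.07 with 1 of 6 probe sets called. Zfp703, called 2.35 higher at 16 h than at 8 h, was not called in this step (0.24 ± 0.11). Rbp4, Tgm2 and Bhlhe40 fell by 0.33, 0.28 and 0.33, calls lost in a fit to all 30 arrays. Aldh1a2 (-0.14 ± 0.13) and Lrat, under the lower quartile, were not called.

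Of 29 measured neural and hindbrain genes 12 rose (41.4%) and 3 fell (10.3%), against 19.2% and 19.6% of all genes. Their median was 0.10. Sox1, the earliest marker of neural plate, read 6.54, 6.48 and 6.42 at 16 h and 7.68, 8.47 and 8.01 at 24 h (1.57 ± 0.20, adjusted p = 7.03e-05). Pax6 read 8.17, 8.18 and 7.91 and then 9.35, 9.41 and 9.40 (1.30 ± 0.09), with 2 of 5 probe sets called. Gbx2, a gene of the anterior hindbrain, rose by 1.09 ± 0.09, and Egr2, a gene of rhombomeres that is also an immediate early gene, by 1.50 ± 0.19. The 3 falls, Dll1, Hes1 and Hes5, are Notch pathway genes, and Hes1 and Hes5 were named after their values were seen. Of 26 endoderm genes 9 rose (34.6%) and 4 fell (15.4%, near the 19.6% of all genes). The falls numbered 2 without 16 h B, 16 h C or 24 h A. Besides Sox7, the keratin Krt8 rose by 1.57 ± 0.07, Foxa2 by 1.37 ± 0.16 and Sox17 by 0.69 ± 0.09. Of 24 mesoderm genes 5 rose (20.8%, near the 19.2% of all genes), led by Foxc2 (0.67 ± 0.15), Wnt3a (0.51 ± 0.13) and Cdx2 (0.45 ± 0.10), and 2 fell, or 1 without 16 h B or any 24 h array. Of 14 trophoblast genes 5 rose and 0 fell (limma, 1 lower at an unadjusted p under 0.05), with 3 rises without 16 h A, 24 h A or 24 h C and 2 without 16 h B. Gata3, dim at 16 h, rose by at least 0.73. Of 5 measured genes of the two-cell-like state 2 rose, Usp17la (1.12 ± 0.22) and Arg2 (0.67 ± 0.22), both highest on 24 h B, and 1 was left without 16 h A, 16 h B, 24 h B or 24 h C.

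Genes of the stem cell state went both ways. Of 31 pluripotency genes 9 rose (29.0%) and 15 fell (48.4%), against 19.2% and 19.6% of all genes. Their median was -0.18. Pou5f1, which encodes OCT4, read 13.34, 13.38 and 13.31 at 16 h and 12.95, 12.78 and 12.82 at 24 h, a fall of 0.49 ± 0.06 (adjusted p = 4.56e-05). Esrrb read 10.82, 10.88 and 10.75 and then 10.28, 9.87 and 10.11 (-0.73 ± 0.09) and Eras fell by 0.73 ± 0.08. Neither Esrrb nor Eras overlapped between the times, as in 25% of all genes in that direction. Both had already fallen from 8 h to 16 h, by 0.50 and 0.39, whereas Pou5f1 had not been called (adjusted p = 0.922, limma). Nanog rose by 0.19 and Zfp42 by 0.38, and Sox2 was not called (-0.05, adjusted p = 0.574). Lefty2, a Nodal target and inhibitor, rose by 1.03 ± 0.06, and Socs3, a target and brake of LIF signalling, by 0.91 ± 0.12. Of 16 formative and primed epiblast genes 2 rose, Sox4 (0.45 ± 0.10) and Nodal (0.21 ± 0.05), and 1 fell, the DNA methyltransferase gene Dnmt3b at -0.68 ± 0.06, or 2 fell without 24 h C. Pou5f1, Esrrb, Nanog, Zfp42 and Sox2 were named after their values were seen.

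Cell cycle genes and Notch genes were the lists with the lowest medians, at -0.22 and -0.23. Of 25 cell cycle genes 15 fell (60%, all genes 19.6%) and 1 rose, or 2 rose without 16 h B or 24 h C. The mitotic kinase gene Aurkb fell by 0.48 ± 0.05, E2f1 by 0.39 ± 0.05, the ribonucleotide reductase gene Rrm2 by 0.38 ± 0.04 and Ccnd3 by 0.37 ± 0.07. Rrm2 read 13.07, 13.09 and 13.08 at 16 h and 12.69, 12.71 and 12.70 at 24 h. Its groups did not overlap, as in 25% of all genes in that direction. Of 19 Notch pathway genes 10 fell and 2 rose, but 6 fell without 16 h B, and 1 rose without 16 h A. The target genes Hey1 and Nrarp fell by 0.86 ± 0.07 and 0.61 ± 0.06 and the ligand gene Dll1 by 0.63 ± 0.10, after rises of 0.60, 0.80 and 0.88 from 8 h to 16 h. The coactivator gene Maml1 rose by 0.97 ± 0.09.

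In the remaining signalling lists, 12 of 22 Nodal, BMP and TGF-beta genes rose and 5 fell (22.7%, near the 19.6% of all genes). The falls numbered 3 without 16 h A or 16 h B. The activin antagonist Fst read 5.51, 5.39 and 5.82 at 16 h and 6.49, 7.19 and 6.68 at 24 h (1.21 ± 0.18), Id3 rose by 0.60 ± 0.07 and Id2 fell by 0.65 ± 0.07. Of 20 Wnt and hedgehog genes 6 rose (30%) and 3 fell (15%), not far from the 19.2% and 19.6% of all genes. The hedgehog inhibitor Hhip read 6.72, 6.50 and 6.75 and then 8.20, 8.39 and 8.14, a 3.00-fold rise with all 4 probe sets called, Gli3 rose by 0.47 ± 0.06 and Sfrp1 fell by 0.56 ± 0.05 with all 5. Pecam1, an adhesion gene of endothelium that stem cells also express, fell by 1.16 ± 0.07, and Tek rose by 0.94 ± 0.16. They belong to a list of 8 erythroid, endothelial and blood genes with 2 rises and 2 falls (25% each, all genes 19.2% and 19.6%). In that list 3 genes (Hba-a1, Ptprc and Emcn) stayed under the lower quartile. Its smaller calls, Cdh5 and Cd68, each lost theirs without single arrays (Cdh5 without 24 h A or any 16 h array, Cd68 without 24 h B, 24 h C, 16 h B or 16 h C), which left 1 rise or 1 fall.

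Lists of basic metabolism were close to balanced, and several shares lay near those of all genes (19.2% up, 19.6% down). In the glycolysis list 27.3% of genes moved each way, and in the cholesterol list 23.8%. Of 22 glycolysis and hypoxia genes 6 rose and 6 fell, or 3 fell without 16 h B or 24 h C. Vegfa and Ndrg1 rose by 0.65 ± 0.09 and 0.50 ± 0.11 and Hk1 fell by 0.55 ± 0.05. Egln1 rose by 0.62 ± 0.05, with its second probe set called lower. Of 21 cholesterol and lipid genes 5 rose and 5 fell, with 3 rises without 16 h A: Msmo1 and Sqle rose by 0.47 ± 0.06 and 0.42 ± 0.05, and Dhcr7 and Insig1 fell by 0.43 ± 0.07 and 0.37 ± 0.08. Of 24 genes of nucleolar ribosome biogenesis 7 rose, or 4 without 24 h A or 24 h C, and 6 fell. Utp20 and Rrp12 rose by 0.43 ± 0.06 and 0.36 ± 0.08, Noc2l fell by 0.42 ± 0.08, and Pes1 fell by 0.44 ± 0.06 with its second probe set called higher. This list had fallen from 8 h to 16 h, with 20 of 24 genes lower (83.3%, all genes 19.6%) and a median of -0.49. At 24 h, 23 of 24 were lower than at 8 h (95.8%, all genes 18.2%), with a median of -0.48. Of 15 cytosolic ribosomal protein genes 1 rose (Rps6, 0.27 ± 0.06) and 0 fell (limma, also 0 lower at an unadjusted p under 0.05). Of 11 housekeeping genes 3 fell, Tfrc (-0.55 ± 0.05), Gusb (-0.22 ± 0.05, with 1 of its 2 probe sets called in each direction) and Hprt (-0.15 ± 0.05), and 1 rose, Actb (0.14, named after its value was seen), which was not called without 16 h B, 24 h B or 24 h C. Hprt lost its call without 16 h A, 16 h B, 24 h B or 24 h C.

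**Figure D5:**
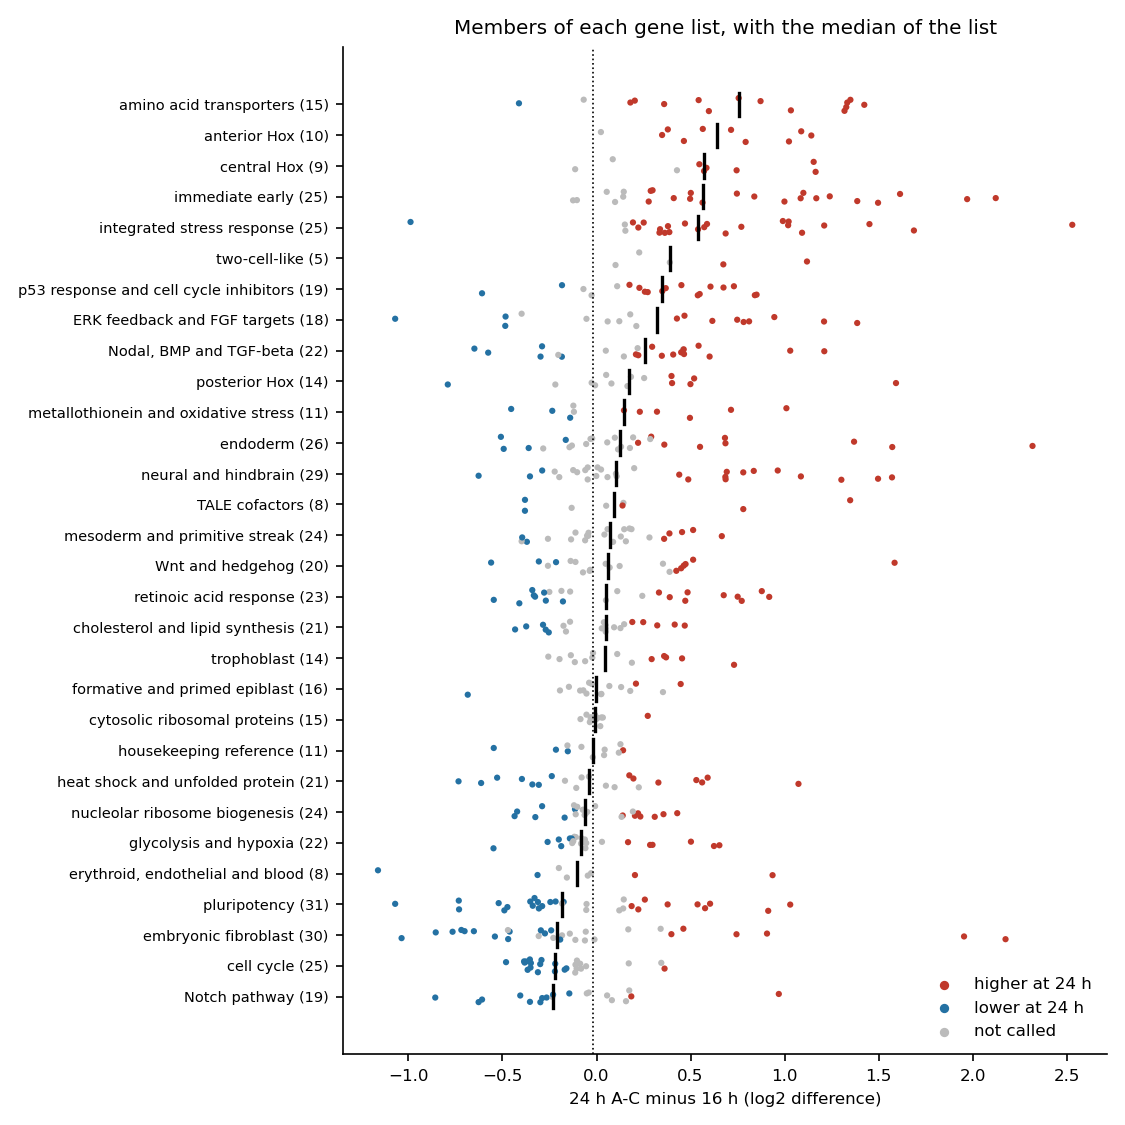
Difference between 24 h A-C and 16 h (horizontal axis, log2) for each measured member of 30 gene lists (rows, with the number measured), coloured by its call, with a black bar at each list's median and a dotted line at the median of all genes (-0.02). Amino acid transporters (median 0.76), anterior and central Hox genes (0.64 and 0.57) and immediate early genes (0.56) lie furthest right, and Notch (-0.23) and cell cycle genes (-0.22) furthest left.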

How the data were processed

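RNA from KH2 cells was measured on Affymetrix mouse arrays. The authors deposited log2 intensities for 45101 probe sets, and their normalisation is not given in the sources used here. limma 3.8.3 is named per the submitters' processing notes. Control probe sets (64), those with no gene symbol (9160) and those with several (932) were left out, and each of 18193 genes kept its probe set with the highest mean over 30 arrays (9010 genes had more than 1). A limma 3.58.1 model (R 4.3.3) was fitted to 12 arrays in 4 groups of 3, with 8 residual degrees of freedom, checked on simulated data. The small number of arrays limits precision.

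Members and gene lists were chosen with earlier results of these data known, and 560 of 609 list entries were measured. Named genes are the 12 largest non-overlapping called changes each way among genes above the lower quartile, 3 dimmer ones each way by adjusted p, every member of 6 lists (immediate early, integrated stress response, ERK feedback, retinoic acid, anterior and central Hox) and 4 members of each other list by size. Others are marked as chosen after their values were seen. Comparisons with 8 h under each alternative were added after seeing the data. The labels do not state that the letters A to C pair arrays, and the model did not pair them. Over all genes, deviations of same-letter arrays correlated at -0.05, -0.01 and 0.02. Such values cannot show whether a letter marks a shared culture or affects single genes.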

Additional observations from a re-analysis of the deposited data

How the results depend on the processing

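Over 16 refits, genes called higher numbered 2991 to 3683 and genes called lower 2975 to 3762, and requiring an adjusted p under 0.01 left 2573 and 2442. Requiring at least 1 log2 unit left 163 and 62. A replicate block on the letter gave 3374 higher and 3388 lower, and among the named genes it took the call from Phgdh and Cyp26a1 only. Of 207 called genes named, 177 kept call and direction under all refits and 30 did not. The reversals came with the choice of probe set: the mean of all probe sets gave 1.29 for Egr3, 0.34 for Pes1 and 0.0232 for Gusb, and leaving out probe sets that can cross-hybridise gave -0.14 for Hoxa10 and -0.16 for Jdp2. Centring the arrays again took the call from 0 of the named genes and quantile normalisation from 1, Cyp26a1. The fit to all 30 arrays took it from 15, and it called 3 higher and 2 lower among glycolysis genes (6 and 6 otherwise) and 2 lower among Nodal and BMP genes (5 otherwise), 4 lower among retinoic acid genes (8 otherwise) and 2 lower among fibroblast genes (13 otherwise). The mean of probe sets called 10 glycolysis genes and 3 nucleolar genes lower (6 and 6 otherwise) and 3 posterior Hox genes higher (5 otherwise). Leaving out probe sets that can cross-hybridise called 4 retinoic acid and 2 endoderm genes lower (8 and 4 otherwise) and 3 cholesterol genes higher (5 otherwise). An intensity trend with a robust prior called 8 cholesterol genes lower (5 otherwise). Leaving out dim genes called 4 Notch genes higher (2 otherwise) and 2 posterior Hox genes higher (5 otherwise). Centring again, or fitting only the 6 arrays compared, called 4 mesoderm genes lower (2 otherwise), and the 6-array fit 3 glycolysis and 3 Nodal and BMP genes lower (6 and 5 otherwise). Other list counts that moved by over 1.5 times had 3 or fewer calls, came from leaving out an array, or used the stricter thresholds. With 3 arrays a group and no detection calls used, genes near the lower quartile have only a bound.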

Other observations

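Arrays D to F of 24 h, which belong to the second array set, differed from 24 h A-C by amounts that varied between stress lists. Over all genes, 10266 of 18193 had a lower mean on D to F, with a median difference of -0.03. All 25 integrated stress response genes had a lower mean there, with a median of -0.71, and so did 13 of 15 amino acid transporter genes, with a median of -0.54. Of 11 metallothionein and oxidative stress genes 9 were lower, with a median of -0.41. The heat shock and unfolded protein list had 4 of 21 lower and a median of 0.22, the p53 list 10 of 19 and -0.02, and the immediate early list 9 of 25 and 0.30. Chac1 had a mean of 10.04 on D to F and 12.06 on A to C. The hybridisation control BioDn minus BioC was 1.40 to 1.53 on D to F and 0.99 to 1.05 on A to C, and the array set and the cells cannot be told apart.

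Jdp2, a repressor of AP-1 sites, read 8.18, 8.16 and 8.24 at 16 h and 10.14, 9.94 and 10.01 at 24 h, a difference of 1.84 ± 0.11, with its second probe set not called. Its direction reversed when probe sets that can cross-hybridise were left out. Jdp2 was chosen after its values were seen. Of the 12 array weights estimated by limma, the lowest was that of 24 h B, at 0.50, which also had the lowest 18S rRNA signal of the 6 arrays compared (9.03 at the 5′ end, against 9.82 to 10.84 at 16 h and 7.99 to 8.35 on 24 h D to F).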
